A study of Mus musculus with 16 samples.

Results

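The baseline gene expression profile of wild-type (WT) microglia was described from 7 of the 16 libraries of the series, the libraries named WT 1 to WT 7 in the sample labels. Each library held total RNA of Cd11b+ Cd45+ cells sorted from the brain of a WT mouse of the 5xFAD line, a line in which the transgenic animals carry familial Alzheimer's disease mutations. All animals were injected with Methoxy-X04, a dye that binds amyloid beta, and the WT cells were collected as Me-X04 negative. The labels give 2 months as the age of the WT mice, whereas the methods of the study name older animals, so the age is uncertain. The other 9 libraries came from transgenic mice and entered no value given here. The sort selected for Itgam, which encodes Cd11b, for Ptprc, which encodes Cd45, and, by the study's methods, for Cx3cr1, so high levels of these 3 genes are a property of the gate. Each value is a log2 RPKM, the binary logarithm of reads scaled by gene length and by library size, and errors are SDs over the 7 libraries. The deposited table lists 17951 genes that passed a filter applied to all 16 libraries, 12376 of them protein-coding. A gene left out by that filter is called not listed, which is no measurement of 0. The top decile is the 1795 listed genes with the highest means, 10% of all by construction, with a mean of 4.09 or more.

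Microglia are the resident macrophages of the brain parenchyma. They depend on signalling through the Csf1 receptor and on TGF-beta, are set in their identity by factors such as Spi1, Irf8 and Sall1, and survey the tissue with processes that respond to ATP and ADP through P2ry12. Their baseline transcriptome is known for lysosomal proteases, complement C1q and a broad set of pattern-recognition, Fc and inhibitory receptors.

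The 7 libraries held 15623664 to 22119327 reads on the listed genes, with a median of 18792701. Listed genes with 0 reads numbered 786, 1019 and 1381 in libraries 1, 2 and 3, and 55 to 154 in libraries 4 to 7. A value of 0 reads was thus more common in libraries 1 to 3, most of all in library 3. Libraries 1 to 3 stood apart from libraries 4 to 7 on the first principal component, which held 50.3% of the variance, and the labels give no batch for this split. Pearson correlations of log2 RPKM across genes were 0.947 to 0.968 within libraries 4 to 7, 0.880 to 0.906 within libraries 1 to 3, and 0.833 to 0.881 between the sets. Values of libraries 1 to 3 did not overlap with those of libraries 4 to 7 for 40.2% of the listed genes, higher in libraries 1 to 3 for 3330 genes and lower for 3884. Among protein-coding genes with a mean of at least 2, the median GC content was 44.5% for the 1977 genes higher in libraries 1 to 3, 53.4% for the 968 genes lower there and 48.4% for the 2632 genes that overlapped. The study used 2 sequencing instruments, but no label assigns a library to either, and the part of instrument or GC content in the split was not tested. Because these sets were found in the data, they are described without a test.

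**Figure D1:**
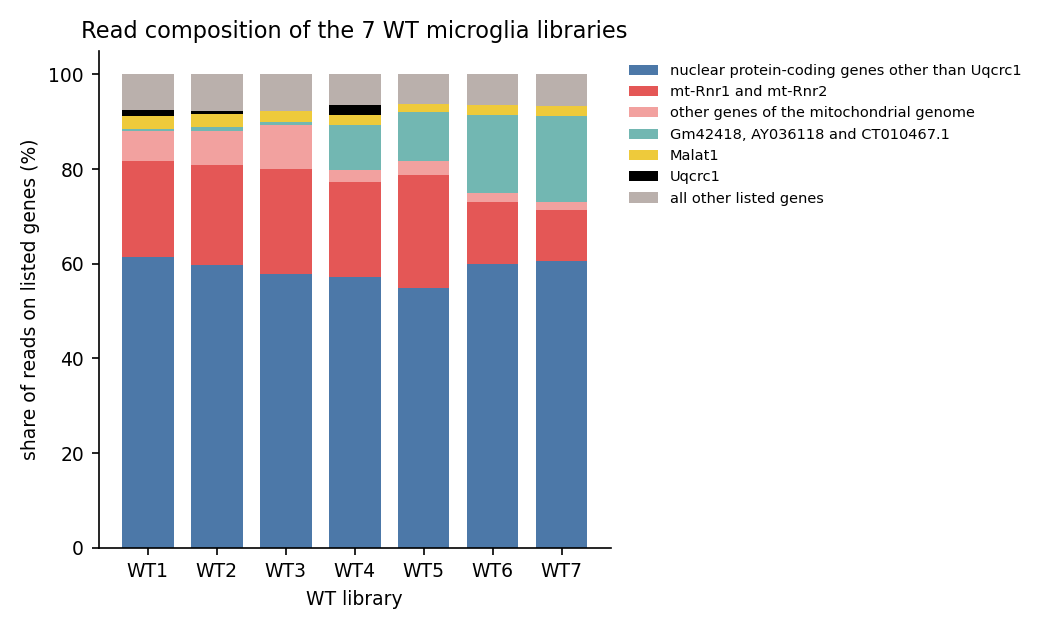
Share of the reads on listed genes (vertical axis, %) in each of the 7 WT libraries (horizontal axis), stacked by gene class. Nuclear protein-coding genes other than Uqcrc1 took 54.9 to 61.4% in every library, while Gm42418, AY036118 and CT010467.1 took 0.522 to 0.764% in libraries 1 to 3 and 9.45 to 18.1% in libraries 4 to 7. CT010467.1 is annotated as ribosomal RNA, and Gm42418 and AY036118 as long non-coding RNAs. These 3 loci overlap and had 26794, 26094 and 28677 reads in library 1. The same read may thus be counted repeatedly in their summed share, which may be too high.

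The promoters of 3 microglial genes are shown because their transcripts carried the main features of the profile: P2ry12 had the highest level among the receptor genes examined, and C1qb and C1qc, neighbours on chromosome 4, kept a near constant ratio to each other. The sequences are the RefSeq windows of the GRCm38.p6 build from 250 bases before to 50 bases after the transcript start, all on the minus strand: chr3:59262936-59263235 for P2ry12, chr4:136886151-136886450 for C1qb and chr4:136892865-136893164 for C1qc. Capitals mark GGAAGT, or ACTTCC where it lies on the opposite strand, a motif bound by ETS factors such as PU.1, the product of Spi1.
P2ry12: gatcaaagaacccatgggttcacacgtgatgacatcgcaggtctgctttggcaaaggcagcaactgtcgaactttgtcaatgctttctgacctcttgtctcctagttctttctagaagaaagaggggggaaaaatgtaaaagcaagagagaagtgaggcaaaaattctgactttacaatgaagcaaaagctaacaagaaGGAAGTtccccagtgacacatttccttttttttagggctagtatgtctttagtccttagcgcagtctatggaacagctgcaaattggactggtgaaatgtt
C1qb: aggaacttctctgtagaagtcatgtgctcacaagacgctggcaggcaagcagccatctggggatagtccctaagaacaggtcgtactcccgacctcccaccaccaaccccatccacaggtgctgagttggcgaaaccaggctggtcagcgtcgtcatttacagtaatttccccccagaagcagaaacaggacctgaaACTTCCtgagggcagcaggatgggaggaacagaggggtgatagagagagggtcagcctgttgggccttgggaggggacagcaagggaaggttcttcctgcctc
C1qc: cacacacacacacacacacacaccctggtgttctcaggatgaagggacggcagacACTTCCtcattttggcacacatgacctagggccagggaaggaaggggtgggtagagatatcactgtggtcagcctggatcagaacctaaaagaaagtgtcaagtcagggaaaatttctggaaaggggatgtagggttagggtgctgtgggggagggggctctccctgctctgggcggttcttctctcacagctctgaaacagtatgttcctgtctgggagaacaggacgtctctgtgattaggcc
The motif began 51 bases before the start of P2ry12, 53 before that of C1qb and 195 before that of C1qc. On either strand it was present in 23.8% of all 32851 promoter windows of the table. Counted by gene, where a match in any window of the gene sufficed, it was present in 26.5% of all 27025 genes with a window. By the same count it was present in 32.8% of the 10410 listed genes with a window. Of the 1050 such genes in the top decile by level 34.5% had it, as did 9 of 18 microglia markers with a window. A match of 6 letters is a description of the sequence and not a binding site.

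The most abundant RNAs were not messenger RNAs. Of the 30 genes with the highest mean, 12 were protein-coding and 11 belonged to the mitochondrial genome. The mitochondrial ribosomal RNA genes mt-Rnr2 and mt-Rnr1 led the list at 16.20 ± 0.52 and 15.44 ± 0.68 (SD, n = 7), and together took 10.9 to 23.9% of the reads of a library. Gm37376, annotated on the strand opposite to Malat1 and inside it, stood at 14.42 ± 0.50, above the nuclear long non-coding RNA Malat1 itself at 11.46 ± 0.35. Whether the reads were counted by strand is not given in the sources used here, so the level of Gm37376 cannot be told apart from that of Malat1. Among the protein-coding mitochondrial genes, mt-Co1, a subunit of cytochrome c oxidase, was highest at 12.55 ± 0.89, followed by mt-Cytb at 11.97 ± 1.14 and mt-Nd4 at 11.69 ± 1.42. Apart from the ribosomal RNAs, genes of the mitochondrial genome took 6.43 to 9.21% of reads in libraries 1 to 3 and 1.69 to 2.97% in libraries 4 to 7.

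Several loci of this group share sequence or position, so their levels are uncertain. AY036118, CT010467.1 and Gm42418 overlap one another on chromosome 17 and had means of 13.26, 12.70 and 12.44, with SDs of 2.06, 2.36 and 2.18. CT010467.1 is annotated as ribosomal RNA, and AY036118 and Gm42418 as long non-coding RNAs. The pseudogenes Gm28439, Gm10925 and Gm10222 on chromosome 1 share 100% of their 16-base words with transcripts of the mitochondrial genome, and Gm29216 shares 97.3%, and they stood at 10.61 to 11.29. Of the 30 genes, 8 were shorter than 300 bases, among them Gm23935 at 14.20 ± 1.165 and Gm24270 at 13.03 ± 0.53, both annotated as miRNA and 57 bases long, with 6689 to 81800 and 6529 to 13708 reads per library.

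Among nuclear protein-coding genes, secreted and lysosomal proteins held the first places. Cst3, encoding the protease inhibitor cystatin C, had log2 RPKM values from 10.76 to 12.39 with a median of 11.63. B2m, the light chain of MHC class I, ran from 10.38 to 11.53 with a median of 11.07, and Ctss, the lysosomal protease cathepsin S, from 10.06 to 10.99 with a median of 10.47. Libraries 1 to 3 were the low ones for Cst3 and the high ones for B2m and Ctss. Ctsd, encoding cathepsin D, followed at 10.29 ± 0.35, and Serinc3, a membrane protein of the serine incorporator family, at 10.13 ± 0.38. Of the 27 lysosomal and abundant secreted proteins described, 24 were in the top decile, with a median of 6.95 against 1.56 over all genes. The exceptions were Apoe, the lipid carrier, at 3.38 ± 0.85, and the complement components C4b at −2.47 ± 1.95 and C3 at −3.90 ± 1.27.

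Complement C1q is a hexamer built from the products of C1qa, C1qb and C1qc. C1qb stood at 9.71 ± 0.26 and C1qc at 8.87 ± 0.29, and both were lower in libraries 1 to 3. C1qa was far less even, with 760, 687 and 559 reads in libraries 1 to 3 and 6385, 7873, 9252 and 9908 reads in libraries 4 to 7, for a mean of 7.05 ± 1.63. It was the only one of the 25 microglia markers with an SD of at least 1, against 26.1% of all listed genes. That share falls to 6.68% of listed genes with a mean from 4 to 6 and 11.7% from 6 to 8. It was 29.9% at a mean of 8 or more. The count of markers was not matched to level, and nothing is read from it.

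Of the genes used in the sort, Itgam stood at 8.04 ± 0.62 and Ptprc at 4.92 ± 0.38. All 25 microglia markers were listed and in the top decile, with means from 5.19 to 11.53 and a median of 8.25. P2ry12, the ADP receptor that guides microglial processes, had 10.46 ± 0.31, with values from 10.13 to 10.999 and a median of 10.36. Csf1r, the receptor on which microglial survival depends, had 9.31 ± 0.19, with values from 9.04 to 9.64. Cx3cr1, the fractalkine receptor, had 9.19 ± 0.75 and ran from 8.50 to 10.20, with every value of libraries 1 to 3 above every value of libraries 4 to 7. The parenchymal markers Tmem119, Fcrls and Siglech stood at 8.16 ± 0.49, 8.25 ± 0.13 and 8.37 ± 0.31. Tyrobp, the signalling adaptor of Trem2, had 8.91 ± 0.93 and was lower in libraries 1 to 3, with 2175 to 2415 reads there and 6763 to 15997 in libraries 4 to 7. Trem2, the lipid-sensing receptor, stood lower at 5.20 ± 0.26, and Golm1, a Golgi membrane protein, was the most even marker at 6.78 ± 0.09. The lowest markers were Slc2a5, the fructose transporter, at 5.19 ± 0.23, Trem2, and Ltc4s, the leukotriene C4 synthase, at 5.22 ± 0.82. Among the markers, 8 were higher and 11 lower in libraries 1 to 3 without overlap, beside 18.55% and 21.6% of all listed genes, and the summed level of all 25 ranged only from 13596 to 17123 RPKM.

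Of 22 transcription factors of microglia and macrophages, 15 were in the top decile, with a median of 4.63. They included Mef2a at 6.98 ± 0.31, Sall1, which distinguishes microglia from other macrophages, at 6.57 ± 0.44, Ikzf1 at 6.46 ± 0.57 and Maf at 6.23 ± 0.48. Spi1, which encodes the lineage factor PU.1, had 4.93 ± 0.62 and Irf8, its partner, 4.19 ± 0.30. Klf4 and Klf2 were low and uneven, at −1.09 ± 1.07 with 7 to 68 reads and at −1.96 ± 1.81 with 0 to 44 reads.

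**Figure D2:**
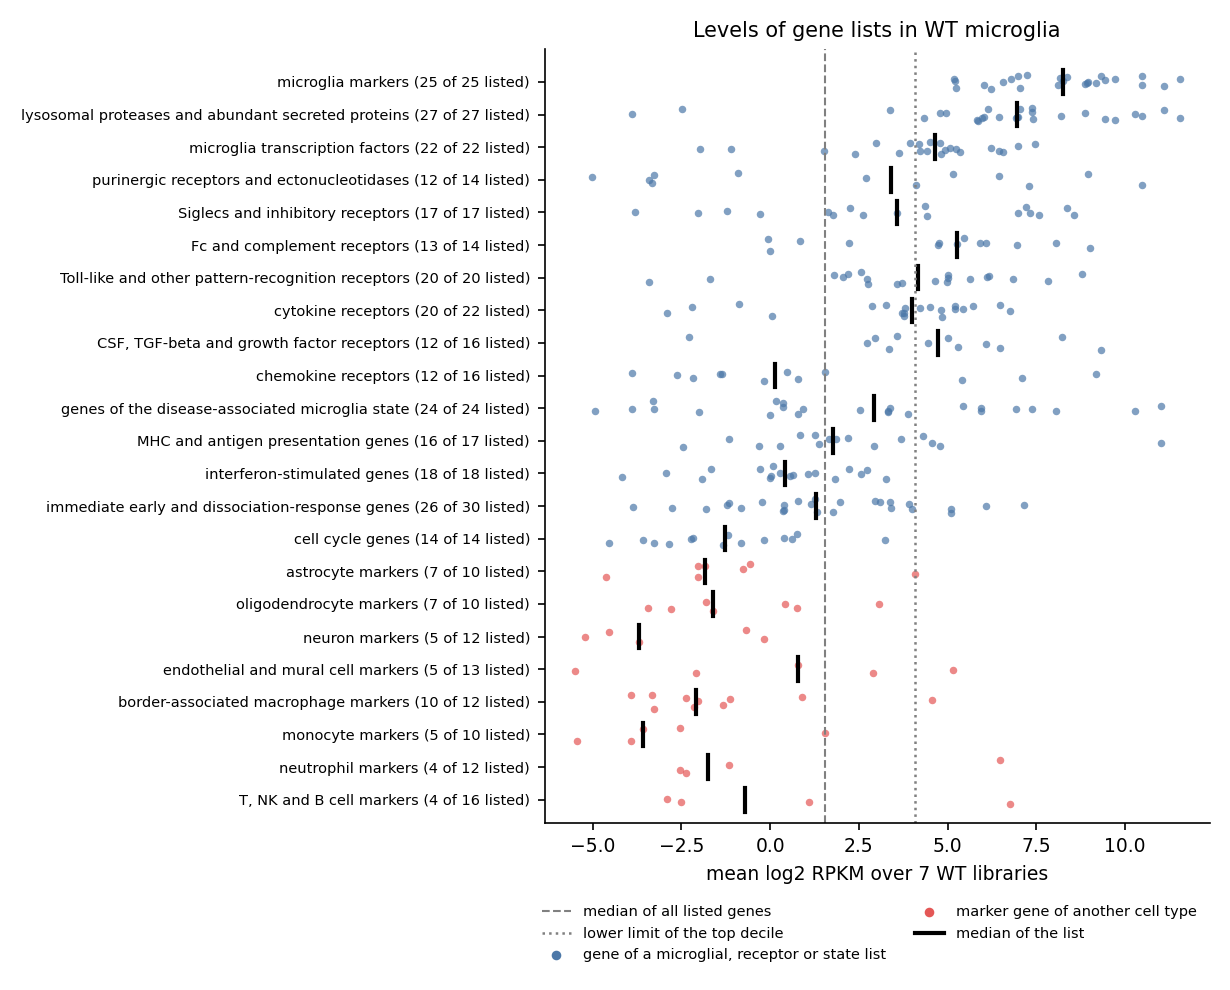
Mean log2 RPKM over the 7 WT libraries (horizontal axis) of every listed member of 23 gene lists, 1 point per gene, with the list median as a bar, the median of all 17951 listed genes (1.56) and the lower limit of the top decile (4.09) as vertical lines. Every microglia marker lies above 4.09, while the medians of the 8 lists shown for other cell types lie between −3.68 for neurons and 0.78 for endothelial and mural cells; of the 4 lists of other cells not shown, choroid plexus and ependymal markers had a median of 1.76 and oligodendrocyte precursor markers, with 1 gene listed, −5.81.

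Markers of other cells were mostly not listed or low. Of 12 border-associated macrophage markers, 10 were listed with a median of −2.09. Stab1, a scavenger receptor, was the only one in the top decile at 4.55 ± 0.54, whereas Mrc1 stood at 0.91 ± 0.58, and Ms4a7, Cd163 and Lyve1 had at most 62 reads in any library and at most 3 in libraries 1 to 3. The summed level of this list was 17.5 to 22.7 RPKM in libraries 1 to 3 and 33.7 to 40.9 RPKM in libraries 4 to 7. Of 10 monocyte markers, 5 were listed, with Ccr2 highest at 1.55 ± 0.32 and Chil3 at 2 reads in library 3 and 0 in the others. Among neutrophil markers, Csf3r, the G-CSF receptor, stood at 6.47 ± 0.29, but S100a9 had 78 reads in library 3 and at most 3 in each of the others, S100a8 15 and 0, and Ngp 16 and at most 8. Of 16 lymphocyte markers, 4 were listed, with Ighm at 6.75 ± 0.40, Cd79b at 1.10 ± 1.05, Cd79a at −2.51 ± 1.64 and Lck, a T cell kinase, at −2.90 ± 0.68, and Cd3e and Igkc were not listed. Globin genes were at or near 0, with at most 17 reads of Hbb-bs, listed as Hbb-b1, and at most 6 of Hba-a1.

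Of brain cells, astrocyte markers were represented by Slc1a3, the glutamate transporter also known as Glast, at 4.08 ± 0.36, just under the limit of the top decile, whereas Gfap had at most 10 reads and Aqp4 4 to 100. Oligodendrocyte markers were led by Cnp at 3.06 ± 0.27, with the myelin gene Mbp at 0.75 ± 1.17. Of 12 neuron markers, 5 were listed, with Camk2a highest at −0.16 ± 0.73 and Snap25 at −0.68 ± 0.97. Of endothelial and mural markers, Bsg, a widely expressed surface protein, stood at 5.17 ± 0.76 and Pecam1 at 2.89 ± 0.95, whereas Cdh5 had at most 43 reads and Flt1 at most 13. Ttr, the transthyretin gene of the choroid plexus, had 3.17 ± 1.15, with 70 to 867 reads. In bulk libraries a low level of such a gene in microglia and a small admixture of other cells cannot be told apart. The Y-linked genes Ddx3y at 3.78 ± 0.31, Eif2s3y at 3.75 ± 0.34, Uty at 2.91 ± 0.43 and Kdm5d at 2.41 ± 0.23 were present in every library, and Xist had 0 to 35 reads, so all 7 libraries had the profile of male animals.

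Purinergic receptors read extracellular nucleotides, and ectonucleotidases degrade them. Of 14 genes, 12 were listed and 6 were in the top decile. P2ry12 at 10.46 and P2ry13, its ADP-sensing paralogue, at 8.96 ± 0.50 led, and the ATP-degrading Entpd1, which encodes Cd39, stood at 7.29 ± 0.45, all 3 higher in libraries 1 to 3. The UDP receptor P2ry6, linked to phagocytosis, had 6.46 ± 0.13, the ATP-gated channel P2rx7 5.16 ± 0.13, the adenosine receptor Adora3 4.11 ± 0.20 and the channel P2rx4 2.70 ± 0.29. Nt5e, which encodes Cd73 and completes the conversion to adenosine, stood at −3.33 ± 1.71, with 0 to 53 reads. Adora2a and Adora2b were not listed.

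Growth factor and TGF-beta receptors followed Csf1r. Tgfbr1 had 8.21 ± 0.21 and Tgfbr2, with which it forms the signalling complex, 6.08 ± 0.33. Csf2ra, the alpha chain of the GM-CSF receptor, was uneven at 5.03 ± 1.16, with values from 3.31 to 6.33 that were all higher in libraries 1 to 3, while Csf2rb, the shared beta chain, had 4.44 ± 0.24. Igf1r and Insr stood at 2.73 ± 0.38 and 3.57 ± 0.16. Of 12 listed chemokine receptors, 3 were in the top decile, among them Cx3cr1 and the chemerin receptor Cmklr1 at 5.41 ± 0.53. Cxcr4 had 0 to 3 reads per library.

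The pattern-recognition list was present in full, with 10 of 20 members in the top decile. Ly86, which encodes MD-1, stood at 8.80 ± 0.12 and its partner Cd180 at 6.84 ± 0.87, the latter from 6.00 to 7.77 and higher in libraries 1 to 3. Of the Toll-like receptors, the endosomal RNA sensor Tlr7 was highest, from 7.19 to 9.01 with a median of 7.44, followed by Tlr13 at 6.10 ± 0.42, Tlr3 at 5.63 ± 0.69, Tlr1 at 5.01 ± 0.42, Tlr9 at 4.97 ± 0.29, and the lipopolysaccharide receptor Tlr4 at 4.64 ± 0.18. Tlr2 had 3.58 ± 0.52 and Tlr8 −3.43 ± 1.78, with 0 reads in libraries 1 to 3 and 7 to 33 in libraries 4 to 7. Cd14, the co-receptor of Tlr4, ran from 3.92 to 6.03 and was lower in libraries 1 to 3.

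Of 14 Fc and complement receptors, 13 were listed and 9 were in the top decile. Fcer1g, the signalling gamma chain, had 9.02 ± 0.34, the activating receptor Fcgr3 6.94 ± 0.58, the inhibitory Fcgr2b 5.46 ± 0.37 and the high-affinity Fcgr1 5.27 ± 0.19, whereas Fcgr4 was low at 0.84 ± 1.54. Itgam, the alpha chain of complement receptor 3, had 8.04 ± 0.62, its partner Itgb2 5.91 ± 0.31, and the anaphylatoxin receptors C3ar1 and C5ar1 6.09 ± 0.15 and 4.75 ± 0.13. Inhibitory receptors were well represented, with Cd33, a Siglec genetically linked to Alzheimer's disease, at 8.57 ± 0.25, Sirpa, the receptor of the "don't eat me" signal Cd47, at 7.58 ± 0.16, Lair1 at 7.33 ± 0.38, Havcr2 at 7.22 ± 0.27 and Vsir at 6.99 ± 0.15. Siglec1, a marker of border macrophages, stood at −2.03 ± 0.60, and Pdcd1 at −3.82 ± 0.96.

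**Figure D3:**
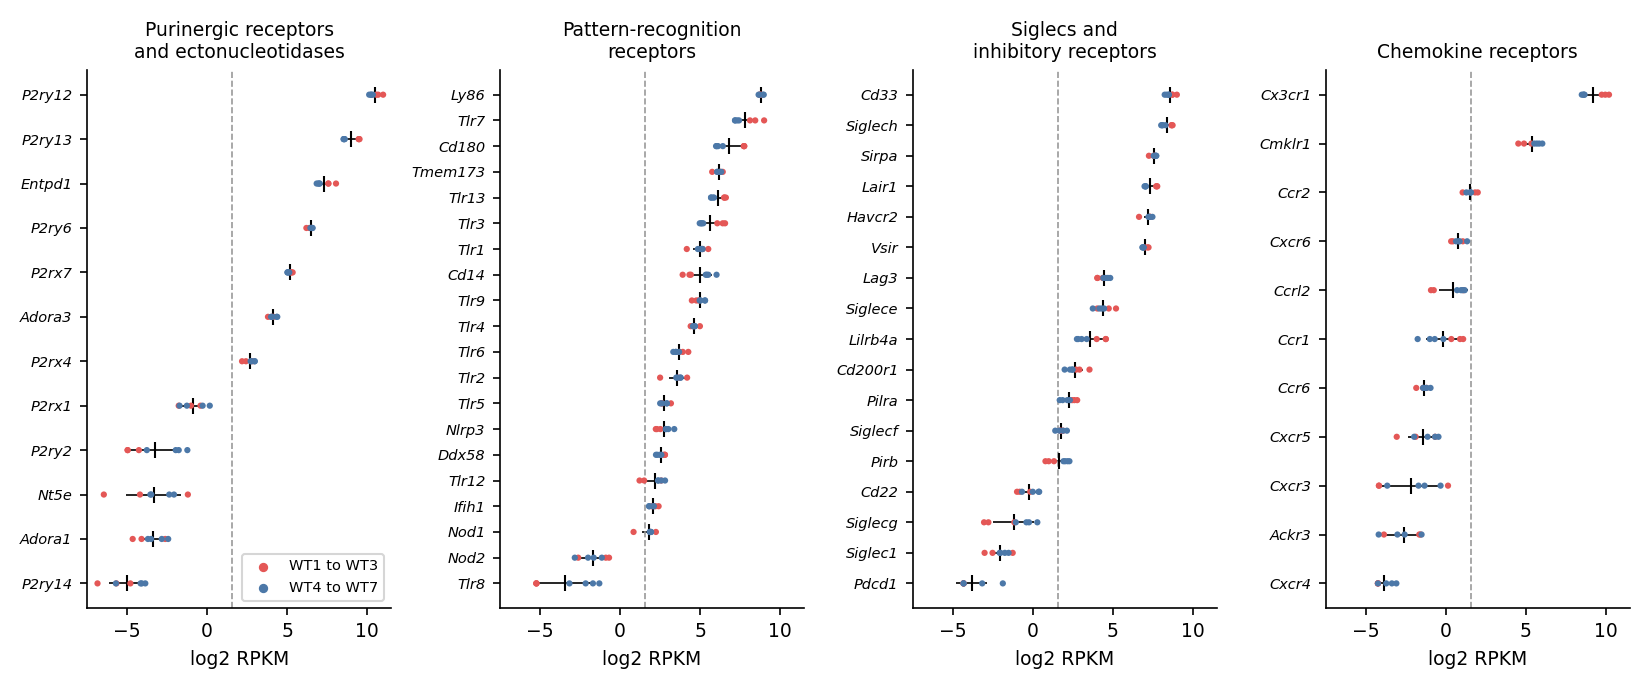
Log2 RPKM (horizontal axis) of listed members of 4 receptor families in each WT library, with libraries 1 to 3 in red, libraries 4 to 7 in blue, the mean as a tick and the SD as a line, and the median of all genes as a dashed line. P2ry12, Ly86, Cd33 and Cx3cr1 lead their families, and Cx3cr1, P2ry13, Tlr7 and Cd180 show libraries 1 to 3 above libraries 4 to 7.

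Phagocytic receptors were led, after Tyrobp, by Mertk, which binds dying cells through Gas6 and Pros1. Mertk stood at 7.50 ± 0.10, with values from 7.41 to 7.69 and no separation of the 2 sets, while its relative Axl had 0.36 ± 0.54. The bridging ligand Pros1 had 5.82 ± 0.52 and Gas6 3.03 ± 1.09. Cd68, a lysosomal scavenger receptor of macrophages, stood at 8.13 ± 0.20, whereas Clec7a, Msr1 and Cd36 had means of 0.35 or less. Of 22 cytokine receptors, 20 were listed and 10 were in the top decile, led by Ifngr1 at 6.77 ± 0.33, Il17ra at 6.48 ± 0.35, Il6ra at 5.71 ± 0.15 and Tnfrsf1b at 5.44 ± 0.10. Tnfrsf1a ran from 0.64 to 4.13, with 59 reads in library 3 and 356 to 1118 in the others. Of 24 neurotransmitter and neuropeptide receptors, 12 were listed and 1 was in the top decile.

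The levels of partner genes were compared within each library, which removes the scaling of the library, with an exact two-sided sign-flip permutation test over the 7 libraries. Adjustment over the 17 pairs followed Benjamini and Hochberg, with a threshold of 0.05, which 16 pairs passed, and 14 had the same sign in 7 of 7 libraries. For these 14 the raw p was 0.0156, the smallest that 7 libraries allow, and the adjusted p 0.019 in the exact permutation test. The genes were chosen with earlier results of these data known, so the number of pairs that passed is not read as a result. Ctsd was 10.3-fold above Ctsb (difference 3.36 ± 0.33 on the log2 scale) and Mertk 142-fold above Axl (7.15 ± 0.59). Tyrobp was 13.1-fold above its receptor Trem2, with a difference of −3.71 ± 0.80 for Trem2 minus Tyrobp, but the difference was −0.58 on reads not divided by gene length (adjusted p = 0.16, exact permutation test). Tgfbr1 was 4.38-fold above Tgfbr2 (2.13 ± 0.28), Tlr7 9.04-fold above Tlr4 (3.18 ± 0.65), P2ry12 2.84-fold above P2ry13 (1.5 ± 0.27), and Il10ra 2.83-fold above Il10rb (1.5 ± 0.30). C1qb was 1.80-fold above C1qc, with a difference of 0.85 ± 0.15 that ran from 0.60 to 1.02, but by 0.018 on reads not divided by length (adjusted p = 0.78, exact permutation test). C1qa minus C1qb ran from −4.19 to −1.07, with a mean of −4.17 in libraries 1 to 3.

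The remaining comparisons were weaker. Cst3 was above Ctss in 6 of 7 libraries (1.06 ± 0.95, exact permutation p = 0.0312, adjusted p = 0.033), but by only 0.07 in the mean of libraries 1 to 3. Spi1 was above Irf8 in 6 of 7 libraries (0.74 ± 0.48, exact permutation p = 0.0312, adjusted p = 0.033). The first call was lost without any 1 of libraries 2 to 7, and the second without library 1 or any 1 of libraries 3 to 7 (adjusted p = 0.066 in the exact permutation test). Fcgr3 was 2.81-fold above Fcgr2b in 7 of 7 libraries, with a difference from 0.04 to 2.31. No difference was detected between Cx3cr1 and Csf1r (−0.12 ± 0.89, exact permutation p = 0.75), for which Cx3cr1 was higher in 3 libraries and Csf1r in 4, and Cx3cr1 was higher by 0.82 in the mean of libraries 1 to 3. These comparisons rest on the deposited gene lengths, and on reads not divided by length the differences of Fcgr3 and Fcgr2b and of Spi1 and Irf8 changed sign. In that setting Trem2 and Tyrobp, C1qb and C1qc, Cst3 and Ctss, and Il6ra and Il6st also no longer passed the threshold.

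Genes of activated states set the baseline against which disease states are read. Of 24 genes of the disease-associated microglia state, all were listed and 8 were in the top decile. These were B2m, Ctsd, the ferritin heavy chain Fth1 at 8.05 ± 0.22, Ctsl at 7.37 ± 0.20, Ctsb at 6.92 ± 0.17, Timp2 at 5.94 ± 0.83, the tetraspanin Cd9 at 5.93 ± 0.25 and the lysozyme Lyz2 at 5.44 ± 0.63. Apoe was intermediate, with values from 2.11 to 4.75 and 126 to 1339 reads. Cst7 had 0.92 ± 0.80, Clec7a 0.35 ± 0.76, Lpl, the lipoprotein lipase, 0.15 ± 1.55, and Itgax, which encodes Cd11c, 0.00 ± 0.69. Spp1, encoding osteopontin, had 3 to 21 reads per library, and Gpnmb had 12 reads in library 6 and 0 in the others. Lpl was higher in libraries 1 to 3, with 285 to 433 reads against 60 to 125.

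Immediate early and dissociation-response genes were mixed. Of 30, 26 were listed and 4 were in the top decile: the small GTPase gene Rhob at 7.14 ± 0.48, the mRNA-destabilising Zfp36 at 6.08 ± 0.24, the cytokine gene Il1a at 5.10 ± 0.35 and Klf6 at 5.09 ± 0.22. Fos and Fosb were not listed, Jun had 3.41 ± 0.46, Egr1 0.40 ± 0.70, Il1b −0.23 ± 0.82, Tnf −1.16 ± 1.22 and Nr4a1 −2.76 ± 1.18. Of the heat shock genes, the constitutive Hsp90ab1, Hspa5 and Hspa8 stood at 6.84 ± 0.22, 6.49 ± 0.47 and 5.99 ± 0.21, whereas the stress-inducible Hspa1a and Hspa1b had 0.25 ± 1.14 and 0.44 ± 1.08. Among cytokines, Tgfb1 had 4.68 ± 0.29, Il18 4.64 ± 0.38 and Ccl12 4.46 ± 0.67, and Igf1 stood at −3.26 ± 1.17.

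None of 18 interferon-stimulated genes was in the top decile, and 10 of 18 had an SD of at least 1, beside 26.1% of all listed genes. Their means ran from −4.19 to 3.26 with a median of 0.41. By level, that share was 77.5% of listed genes below −2, 51.3% from −2 to 0, 21.6% from 0 to 2 and 9.27% from 2 to 4. The count of 10 was not matched to level. Of the interferon-stimulated genes, Ifitm3 had 2.57 ± 1.23 and Isg15 0.07 ± 0.63. Ifit3 had 0 reads in library 3 and 62 to 112 in the others, for 0.27 ± 2.00. Of MHC genes, the class I heavy chains H2-K1 and H2-D1 had 4.79 ± 0.31 and 4.57 ± 0.32. Of the 16 listed MHC and antigen presentation genes, 6 were lower and 3 higher in libraries 1 to 3 without overlap. Over all listed genes the shares were 21.6% and 18.55%. The lower ones included the class II genes H2-Aa, H2-Ab1, H2-Eb1 and H2-DMa and the invariant chain Cd74. H2-Aa had 3, 13 and 47 reads in libraries 1 to 3 and 396, 250, 730 and 418 in libraries 4 to 7, for 1.39 ± 2.52, and Cd74 had 33 to 87 reads against 346 to 866, for 2.93 ± 1.48. No cell cycle gene of 14 was in the top decile, with the replication clamp Pcna at 3.23 ± 0.32, Mki67 at −0.18 ± 0.72 and Top2a at −2.17 ± 1.67.

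The floor was set at 3 reads in each of the 7 libraries, and 24 listed genes, or 0.134%, lay at or under it. Of these, 20 were protein-coding, and 7 had 0 reads in all 7 libraries: Atp6v0d2 and Dcstamp, known from osteoclasts and multinucleated macrophages, Ctnna3, Fam189a2, Fxyd6, Gm13362 and Trpc4. With 0 reads in a library, up to 3 reads cannot be told from absence, a limit that covers counting error only. The others, a choice made after their values were seen, included Cxcr4, the T cell co-stimulator Cd28, the heparanase Hpse, Chil3, the interferon lambda receptor Ifnlr1, Mamdc2 and Baiap2l2. Such genes are in the table because the filter used all 16 libraries. Their log2 values follow from gene length and the small prior that the authors added, as for Trpc4 at −6.39 and Gm13362 at −3.13, both at 0 reads, and carry no order of expression.

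**Figure D4:**
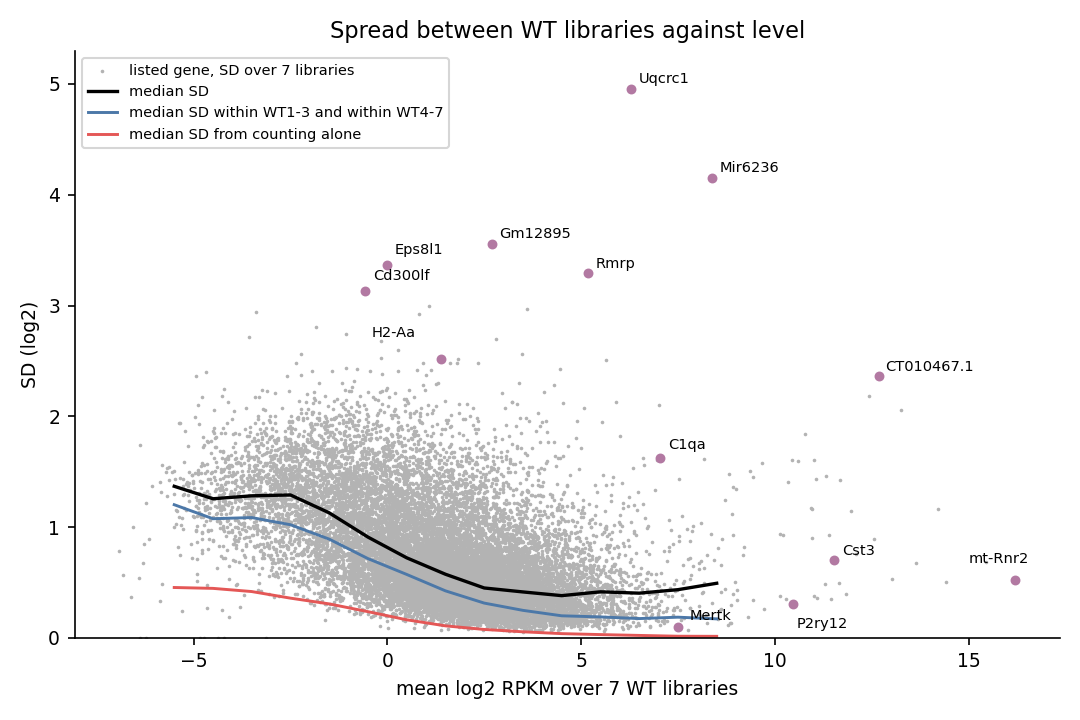
SD over the 7 WT libraries (vertical axis, log2) against mean log2 RPKM (horizontal axis) for all 17951 listed genes, with the median SD, the median SD within the 2 sets of libraries and the median SD that counting alone gives. The median SD at a mean of at least 2 was 0.43, against 0.26 within the sets and 0.06 from counting, and Uqcrc1 and Mir6236 lie highest.

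The median SD was 0.62 over all genes and 0.43 over the 7504 genes with a mean of at least 2. Counting alone gave a median of 0.06 for the latter, a value that leaves out all differences between animals and between the sets of libraries. An SD of at least 1 was found for 77.5% of the 1500 genes with a mean below −2 and for 9.27% of the 5585 with a mean from 2 to 4. Of the 4677 genes past this limit, 678 had a mean of at least 2, and 168 of those were protein-coding.

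Uqcrc1, a core subunit of respiratory complex III, had the largest SD of all, 4.95. It held 209802, 134977 and 415940 reads in libraries 1, 2 and 4, and 362 to 577 in libraries 3, 5, 6 and 7. The high libraries thus came from both sets, and the gene took 2.21% of the reads of library 4. The second was Mir6236, with an SD of 4.15, 27 to 33 reads in libraries 1 to 3 and 4811 to 20865 in libraries 4 to 7. Its mature miRNA is shown from RefSeq (GRCm38.p6, chr9:110281353-110281371, plus strand) with the seed, bases 2 to 8, in capitals. The locus was picked because the means of libraries 1 to 3 and of libraries 4 to 7 differed by 7.63. This was the largest such difference among the 30 most variable genes, with an SD of 0.87 within the sets. The library method did not select for mature miRNAs.
mmu-miR-6236: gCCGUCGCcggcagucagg
The ribozyme RNA gene Rmrp followed the same pattern, with 6 to 20 reads in libraries 1 to 3 and 1140 to 1814 in libraries 4 to 7, as did the signal recognition particle RNA Rn7s1, with 14 to 30 against 368 to 817. Of the 30 most variable genes, 21 were lower in libraries 1 to 3, 2 were higher, and 7 overlapped, beside 21.6%, 18.55% and 59.8% of all listed genes. The SD that ranks these genes includes the split, so nothing is read from this count. Cd300lf, an inhibitory receptor for phosphatidylserine, was among the 7, with 71, 4, 4, 1334, 22, 1506 and 76 reads in libraries 1 to 7 and a mean of −0.58 ± 3.13. Dnase1l3, Sycp1 and Trim12a likewise varied within the sets, with Sycp1 at 83 and 126 reads in libraries 1 and 3 and at most 1 in the others.

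Among genes with a mean of at least 2, 25 of the 30 most variable were lower in libraries 1 to 3, beside 19.4% lower and 32.2% higher of all genes at this level, and 3 were protein-coding. This count too follows a ranking that includes the split. Gm26917, a long non-coding RNA gene on chromosome 17, had 270 to 711 reads in libraries 1 to 3 and 12901 to 24526 in libraries 4 to 7. Marcks, an abundant membrane-bound regulator of actin, went the other way at 8.81 ± 1.48, with 80914 to 99366 reads in libraries 1 to 3 and 17983 to 20019 in libraries 4 to 7. The spread of Marcks within the sets was 0.10. Genes often used as references ranged from Gusb at 4.54 ± 0.09 and Eef1a1 at 6.65 ± 0.23 to Actb at 8.42 ± 0.71 and Gapdh at 1.73 ± 0.46, the last a gene with many near-identical pseudogenes, so that its level is uncertain.

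**Figure D5:**
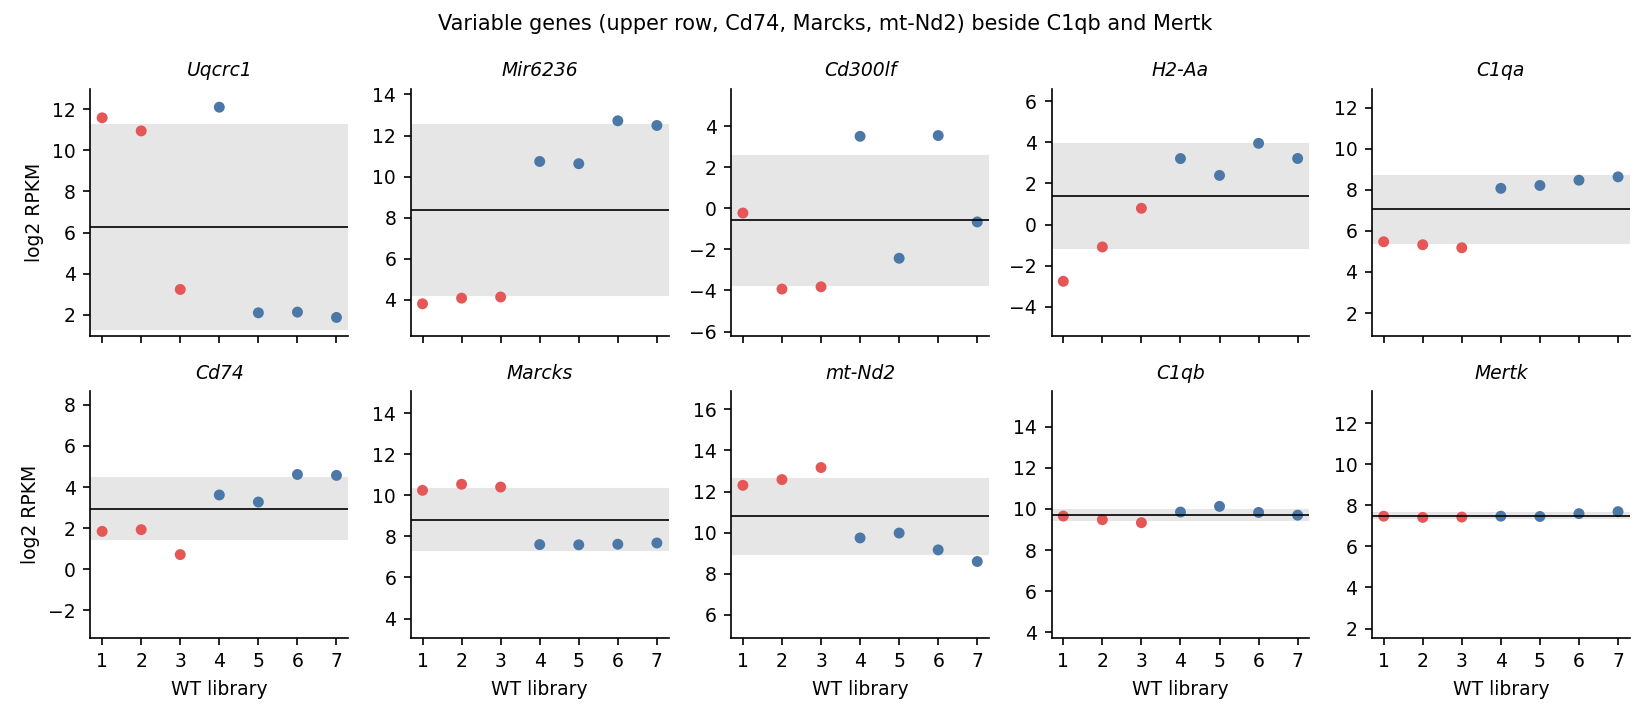
Log2 RPKM (vertical axes, each spanning 12 units) of 10 genes in each WT library (horizontal axes), with libraries 1 to 3 in red, libraries 4 to 7 in blue, the mean as a line and 1 SD as a grey band. Uqcrc1 and Cd300lf vary within both sets, Mir6236, H2-Aa, C1qa and Cd74 are low and Marcks and mt-Nd2 high in libraries 1 to 3, and C1qb and Mertk have SDs of 0.26 and 0.10.

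The most even genes at a mean of at least 2 were all protein-coding and 3712 bases or longer. Vav2, a guanine nucleotide exchange factor for small GTPases, had an SD of 0.05 with values from 3.42 to 3.57, and the other 14 had SDs up to 0.07. They included Ski and Smad4, a repressor and a mediator of TGF-beta signalling, at 5.59 and 2.98, the lipid flippase gene Atp8a1 at 4.23, the splicing factor gene Sf1 at 3.82, and Epb41l2, a membrane skeleton protein, at 7.76. Of these 15, 13 had overlapping values in the 2 sets, beside 48.4% of all genes at this level. The SD that ranks them includes the split, so nothing is read from this count. The 15 genes had a median SD of 0.07, against a median of 0.03 from counting alone.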

How the data were processed

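Microglia of WT and transgenic 5xFAD mice were isolated after perfusion by mechanical dissociation and a Percoll gradient, and sorted. Libraries were made from total RNA with the Ovation RNA-Seq System V2 and Ultralow V2. According to the labels and methods, the authors trimmed reads with Trim Galore 0.4.4, aligned them to GRCm38 with STAR 2.5.4b, counted genes with featureCounts, filtered genes over all 16 libraries and deposited log2 RPKM values from edgeR 3.24.3. Strand setting and treatment of overlapping genes are not given in the sources used here. Replicates are described as biological.

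Reads were recovered from the deposited log2 values: 100% were whole within 0.01 read. They served for depth, the floor and the SD expected from counting. The total per library covers listed genes only, was 15623664 to 22119327, and may count reads in overlapping genes repeatedly. Of 17951 gene IDs, 17792 matched the annotation; 12919 symbols were deposited, 4874 came from the reference and 158 genes have none. Means and SDs were taken over the 7 WT libraries, and a gene in the top decile is among the 1795 highest. Partner genes were compared with an exact sign-flip permutation test, whose p-values measure the spread between these libraries. Columns of the transgenic libraries were not used, and some genes, though counted in their lists and pairs, are not reported here. Named genes are the 30 highest by mean, overall and among protein-coding genes, the 30 with the largest SD, overall and at a mean of at least 2, the 15 most even at a mean of at least 2, both genes of each pair and members of the fixed lists of markers, receptors and pathways; genes outside this rule were chosen after their values were seen. The genes and lists were chosen with earlier results of these data known. The procedures were tested on simulated data. Python 3.11.15, numpy 2.4.6, pandas 2.3.3 and scipy 1.17.1 were used. Alternatives covered the average, pseudocount, scaling, filter, gene length, floor and libraries used.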

Additional observations from a re-analysis of the deposited data

Results flagged for a closer look

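For each gene given with values, each pair difference and each library share, the gap between the highest or lowest library and its nearest neighbour was divided by the range of the 7 libraries, and a ratio above Dixon's 95% critical value marked a library that stood apart. Of 226 items, 21 did so, or 9.29%. Library 3 was the one that stood apart for 12 of them and library 2 for 4. A rate of 1 in 20 by chance holds for independent values from 1 normal distribution. The items come from the same 7 libraries, which fall into 2 sets, and some have 0 reads in several libraries. The 9.29% is therefore not compared with that rate. Library 3 also had the most listed genes with 0 reads, 1381. All values are log2 RPKM.

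Library 3 was high for Ddx3y at 4.40 with the nearest other library at 3.84 (ratio 0.576), Eif2s3y at 4.43 with the nearest other library at 3.79 (ratio 0.576), Klf6 at 5.55 with the nearest other library at 5.10 (ratio 0.674), S100a8 at 0.67 with the nearest other library at −2.86 (ratio 1), S100a9 at 3.35 with the nearest other library at −0.91 (ratio 0.736) and Slc1a3 at 4.86 with the nearest other library at 4.15 (ratio 0.674). These are neutrophil, astrocyte, early response and Y-linked genes. Library 3 was low for Fcgr4 at −2.45 with the nearest other library at 0.70 (ratio 0.682), Ifit3 at −4.19 with the nearest other library at 0.64 (ratio 0.865), Sirpa at 7.25 with the nearest other library at 7.55 (ratio 0.645), Tlr2 at 2.51 with the nearest other library at 3.52 (ratio 0.599), Tnfrsf1a at 0.64 with the nearest other library at 3.06 (ratio 0.693) and Top2a at −5.79 with the nearest other library at −2.38 (ratio 0.711). They include 4 receptors. Library 2 was low for C3ar1 at 5.79 with the nearest other library at 6.07 (ratio 0.635), Cdh5 at −4.67 with the nearest other library at −2.39 (ratio 0.651), Havcr2 at 6.63 with the nearest other library at 7.22 (ratio 0.703) and Igf1r at 1.89 with the nearest other library at 2.72 (ratio 0.715). Library 6 was high for Gpnmb at −2.73 with the nearest other library at −5.31 (ratio 1) and Lyve1 at −1.16 with the nearest other library at −3.37 (ratio 0.613). Library 6 was low for Il6ra at 5.39 with the nearest other library at 5.71 (ratio 0.713). Library 1 was high for Itgax at 1.44 with the nearest other library at 0.24 (ratio 0.585). Library 4 was high for Hba-a1 at −1.18 with the nearest other library at −2.59 (ratio 0.741). S100a8 and Gpnmb had reads in 1 library only, so their ratio is 1 by construction.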

How the results depend on the processing

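Of the 30 highest protein-coding genes, 27 to 30 remained among the 30 highest under each alternative run for levels, and all 25 microglia markers stayed in the top decile with the median, log2(RPKM + 1), protein-coding genes only and each choice of libraries, but were not recounted under other scalings. The count of genes with an SD of at least 1, 4677, moved to 2894 with the median absolute deviation, 601 with log2(RPKM + 1), 678 among genes with a mean of at least 2, 2547 with the SD pooled within libraries 1 to 3 and 4 to 7, and 858 in libraries 4 to 7 only, and ranged from 3548 to 5000 with 1 library left out. Of the 30 largest SDs, 4 were kept in libraries 4 to 7 only and 5 in libraries 1 to 3 only; these 2 alternatives were chosen after seeing the data. The count at the floor, 24, was 7 at 0 reads, 155 at up to 10 reads, 46 in libraries 4 to 7 and 748 in libraries 1 to 3, and 27 to 33 with 1 library left out. Pairs that differed numbered 16 and became 10 on reads not divided by length, where Fcgr3 minus Fcgr2b was −0.25 (adjusted p = 0.53, exact permutation) and Spi1 minus Irf8 −0.65 (adjusted p = 0.027, exact permutation), and where the calls were lost for Trem2 minus Tyrobp (−0.58), C1qb minus C1qc (0.018), Cst3 minus Ctss (0.96) and Il6ra minus Il6st (0.53). With 1 library left out they numbered 14 to 15: Cst3 and Ctss lost the call without any of libraries 2 to 7, and Spi1 and Irf8 without library 1 or any of 3 to 7 (adjusted p = 0.066, exact permutation), where 6 libraries allow no p under 0.0312. With 3 or 4 libraries no count was made, since the test cannot pass 0.05. Levels of 495 named genes moved by over 1 SD for 169 with log2(RPKM + 1), 112 in libraries 1 to 3, 62 without the authors' scaling and prior, and 7 with quantile normalization. No paired analysis was possible because all 7 libraries belong to 1 group. Few reads limit genes below a mean of about −2.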

Other observations

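Listed genes can carry the same reads under 2 names. In 6 pairs of listed genes the reads were equal in all 7 libraries, with a total of at least 100 reads per gene, and the largest was Sowahc with ENSMUSG00000107372, at 33162 reads each. A second such pair, Gm5621 with ENSMUSG00000057626, at 1973 reads each, was among the 30 most variable genes with a mean of at least 2. In each pair 1 gene ID has no entry in the annotation used here. These pairs were found after the values were seen, and each stands for 1 measurement, not 2.

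Small non-coding genes had wide ranges for their level. The 291 genes annotated as miRNA had a median level of 2.97 and a median SD of 1.08, and the 193 snoRNA genes a median level of 2.44 and a median SD of 1.09, against 1.75 and 0.53 for the 12376 protein-coding genes. The 22 mitochondrial tRNA genes had a median level of 7.33 and a median SD of 0.80.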
